A study of Homo sapiens with 12 samples.

Results

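Panobinostat was set directly against JQ1 in SK-N-BE(2) cells, a MYCN-amplified human neuroblastoma line grown in culture. The comparison rests on 6 of the 12 arrays of the series, 3 from cells given 10 nM panobinostat and 3 from cells given 1 µM JQ1, all after 6 h. 3 arrays of cells given vehicle served to show which compound had moved a gene, and 3 arrays of cells given both compounds entered only the estimate of spread. Every named gene was a member, 14884 in all, each taken from the transcript cluster (the probes that the array assigns to 1 locus) with the highest mean signal over the 12 arrays. They came from 16098 named clusters of the 53617 on the Affymetrix Human Gene 2.0 ST array. The labels give 1 cell line, 1 dose of each compound and 1 time, so the values compare these doses and not equal effects of the compounds.

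Acetyl groups on histone tails are removed by histone deacetylases (HDACs) and read by proteins with bromodomains, among them BET proteins such as BRD2 and BRD3. Panobinostat blocks HDACs of several classes, so acetylation builds up, whereas JQ1 occupies the acetyl-lysine pocket of BET bromodomains and displaces these proteins from chromatin. BET proteins help to recruit P-TEFb, the kinase that releases paused RNA polymerase II, and a part of P-TEFb is held inactive by the 7SK RNA with HEXIM1, LARP7 and MEPCE.

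Signals are the deposited values, taken as log2, and a difference is panobinostat minus JQ1 (log2 ± SE from limma, n = 3 arrays per group). A gene was called at a Benjamini-Hochberg adjusted p under 0.05. Correlations over these genes were 0.991 to 0.995 between arrays of 1 group and 0.982 to 0.986 between panobinostat and JQ1 arrays. All 13 measured markers of noradrenergic neuroblastoma cells lay above the median gene, and their mean signal was 10.42 in the panobinostat arrays, 10.60 to 10.64 in the JQ1 arrays and 10.69 to 10.72 in the vehicle arrays. 4 of these markers were lower with panobinostat than with JQ1 and 0 were higher. The 11 measured markers of fibroblasts, Schwann cells, endothelium, leukocytes and epithelium, of which 4 lay above the median gene, averaged 7.06 to 7.12 with panobinostat, 7.04 to 7.07 with JQ1 and 7.03 to 7.16 with vehicle, and 0 of them were called. Panobinostat replicate 1 had a narrower spread of signals (interquartile range 2.52) than the other panobinostat and JQ1 arrays (2.68 to 2.82), and its part in the results is given below by the values without it.

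The compounds left different profiles, and the difference ran both ways. Of 14884 genes, 3461 were called between panobinostat and JQ1 (23.3%), 1732 of them higher with panobinostat (11.6%) and 1729 lower (11.6%). Most differences were small, with a median size of 0.43 among called genes and a range from -2.01 to 2.24. At least 2-fold differences were found for 85 genes that were higher (0.571%) and 59 that were lower (0.396%) with panobinostat. The panobinostat and JQ1 arrays did not overlap for 5849 genes (39.3%). After centring of the arrays on their medians, 1088 genes were higher and 1847 lower, so the even split of the direct comparison depends on the scale of the deposited values.

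**Figure D1:**
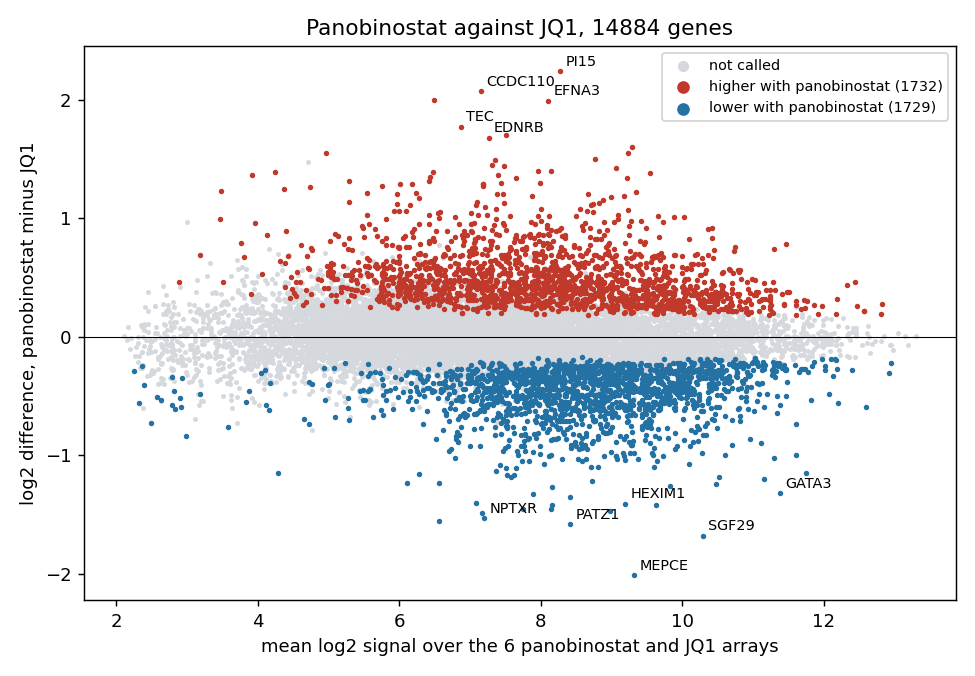
Each of 14884 genes is placed by its mean log2 signal over the 6 panobinostat and JQ1 arrays (x) and its log2 difference, panobinostat minus JQ1 (y), with 1732 genes called higher in red, 1729 called lower in blue and the others in grey. PI15 at 2.24 and CCDC110 at 2.07 are the highest labelled genes, and MEPCE at -2.01 and SGF29 at -1.68 the lowest.

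Among the 12 protein-coding genes with the largest rises over JQ1 were PI15, CCDC110, EFNA3 and STC1. PI15 (cluster 17070110), a secreted peptidase inhibitor, had log2 signals of 9.29, 9.40 and 9.49 with panobinostat, 7.28, 7.10 and 7.06 with JQ1, and 8.78, 8.34 and 8.56 with vehicle. The panobinostat arrays lay above all vehicle arrays and the JQ1 arrays below them, which gave a 4.74-fold difference (2.24 ± 0.12, limma adjusted p = 1.4e-06). CCDC110 (cluster 16982147), a coiled-coil protein known as a cancer-testis antigen, was at 8.05, 8.39 and 8.12 with panobinostat, 6.17, 6.10 and 6.10 with JQ1, and 6.07, 5.92 and 6.21 with vehicle. Its JQ1 and vehicle arrays overlapped, and the difference between the compounds was 4.19-fold (2.07 ± 0.10, limma adjusted p = 6.42e-07). EFNA3 (cluster 16671632), the ephrin-A3 ligand of EPH receptor kinases, was at 9.09, 9.11 and 9.10 with panobinostat, 7.17, 7.23 and 6.94 with JQ1, and 6.77, 6.72 and 6.76 with vehicle. All 3 groups were apart, and panobinostat was 3.97-fold above JQ1 (1.99 ± 0.08, limma adjusted p = 3.1e-07). STC1 (cluster 17075553), the secreted glycoprotein stanniocalcin 1, was at 10.06, 10.14 and 10.08 with panobinostat, 8.40, 8.63 and 8.46 with JQ1, and 8.34, 8.58 and 8.29 with vehicle. Panobinostat stood apart from both other groups, 3.03-fold above JQ1 (1.60 ± 0.10).

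Of the other 8 protein-coding genes with the largest rises, 5 were called with panobinostat and not with JQ1 when each was set against vehicle. They were the calcium-binding protein gene EFCAB12 (2.00 ± 0.23), the tyrosine kinase gene TEC (1.77 ± 0.22), EXPH5, whose product binds the vesicle GTPase RAB27 (1.70 ± 0.17), the endothelin receptor gene EDNRB (1.68 ± 0.12), and CNN2, which encodes the actin-binding calponin 2 (1.55 ± 0.08). A dimmer CNN2 cluster showed no call in limma (0.15, adjusted p = 0.439 over clusters). HYKK, the hydroxylysine kinase gene, rose with both compounds, by 2.08 with panobinostat and 0.62 with JQ1, and differed by 1.45 ± 0.15. DIXDC1, a WNT pathway gene (1.5 ± 0.09), and HOOK1, whose product links cargo to dynein (1.49 ± 0.17), moved in opposite directions with the compounds.

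At the other end stood MEPCE and SGF29, with HEXIM1 and EFR3B among the 12 protein-coding genes furthest below JQ1. MEPCE (cluster 17049330), the capping enzyme of 7SK RNA, had log2 signals of 8.37, 8.12 and 8.45 with panobinostat, 10.23, 10.32 and 10.43 with JQ1, and 9.87 on each of the 3 vehicle arrays. Panobinostat lay below vehicle and JQ1 above it, 4.04-fold apart (-2.01 ± 0.09, limma adjusted p = 3.1e-07). SGF29 (cluster 16817337), the subunit of the SAGA and ATAC acetyltransferase complexes that reads methylated histone H3, was at 9.55, 9.32 and 9.46 with panobinostat, 11.18, 11.09 and 11.11 with JQ1, and 10.66, 10.65 and 10.64 with vehicle. Its 3 groups did not overlap either, and the difference was -1.68 ± 0.07 (3.21-fold, limma adjusted p = 3.1e-07). HEXIM1 (cluster 16834921), which holds P-TEFb inactive, was at 8.53, 8.49 and 8.43 with panobinostat, 9.82, 9.90 and 9.98 with JQ1, and 8.08, 8.02 and 8.04 with vehicle. Both compounds raised it, JQ1 by 1.85 and panobinostat by 0.44, so that panobinostat was 2.66-fold below JQ1 (-1.41 ± 0.06, limma adjusted p = 3.34e-07). A second, dimmer HEXIM1 cluster was equal with both compounds (difference -0.00, adjusted p = 0.998 over all clusters) and was at -0.40 against vehicle with each. EFR3B (cluster 16877795), a membrane anchor of a phosphatidylinositol kinase, was at 8.14, 8.23 and 8.36 with panobinostat, 9.65, 9.77 and 9.72 with JQ1, and 8.49, 8.07 and 8.17 with vehicle. Panobinostat and vehicle overlapped and JQ1 was above both, with a difference of -1.47 ± 0.10.

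The zinc finger factors PATZ1 (-1.58 ± 0.09) and ZBTB8A (-1.42 ± 0.11) were lower with panobinostat, as were HMGN2, a nucleosome-binding protein (-1.49 ± 0.17), EPC2, a subunit of the NuA4 acetyltransferase (-1.45 ± 0.08), and CPEB2, which binds the polyadenylation elements of mRNAs (-1.45 ± 0.19). All 5 fell below vehicle with panobinostat and none of them was called with JQ1. The forkhead-like factor STOX1 differed by the same order (-1.40 ± 0.14), but here JQ1 was the called compound, 0.99 above vehicle, and panobinostat was at -0.41 (adjusted p = 0.0521). NPTXR, the neuronal pentraxin receptor (-1.53 ± 0.11), and ELF1, an ETS transcription factor (-1.42 ± 0.12), were among the genes moved in opposite directions.

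**Figure D2:**
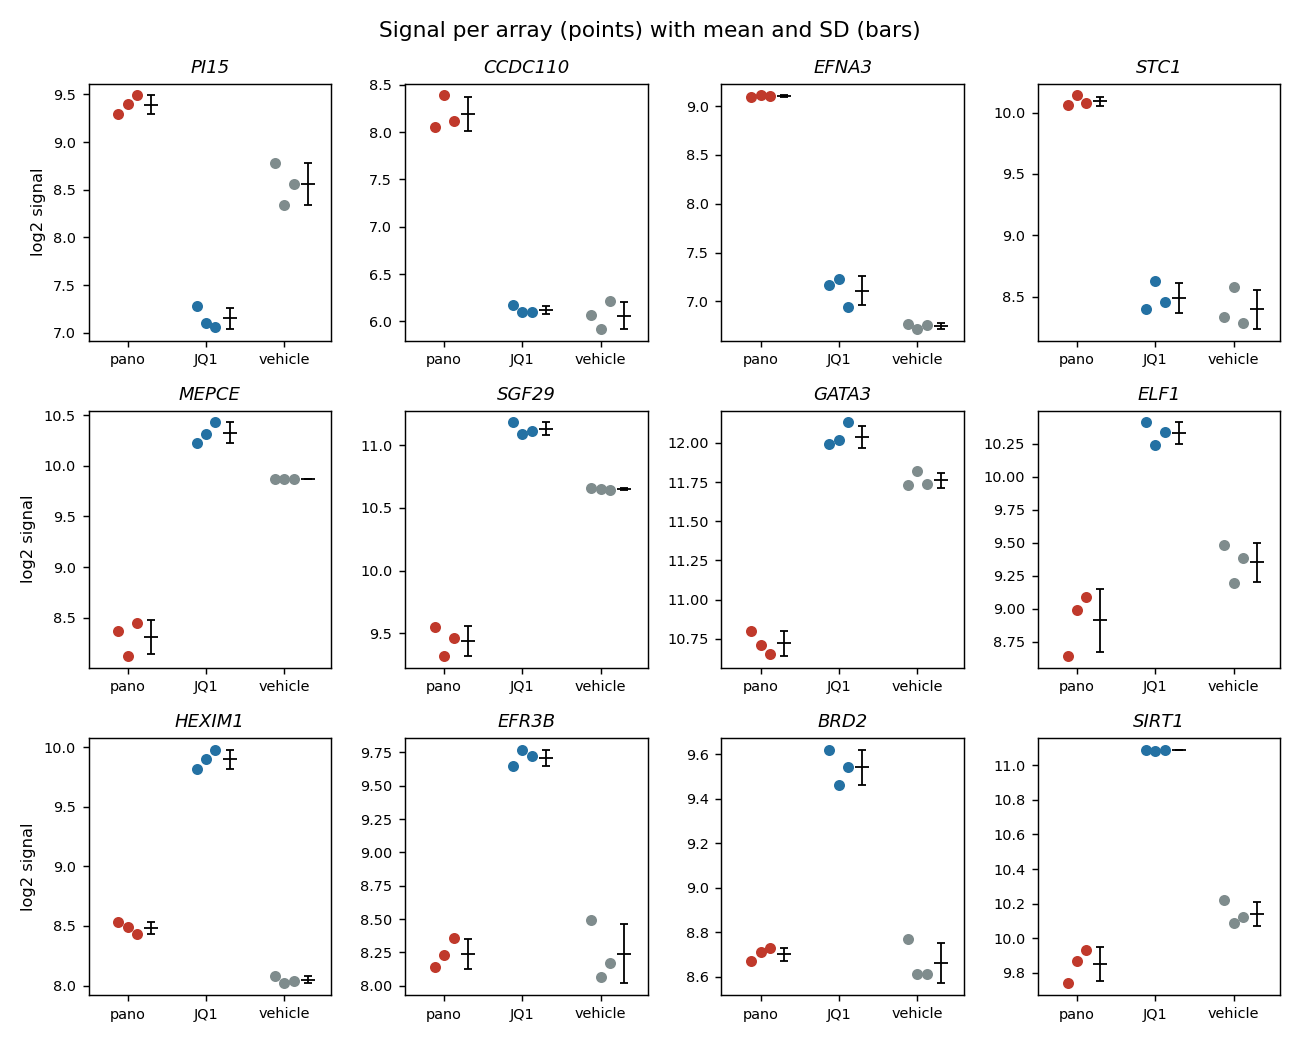
Log2 signal (y) of 12 genes on each of the 3 panobinostat (red), 3 JQ1 (blue) and 3 vehicle (grey) arrays, with the group mean and SD beside the points and a scale of its own for each gene that does not start at 0. In PI15 and ELF1 the compounds stand on opposite sides of vehicle, in CCDC110 and STC1 panobinostat stands alone, and in EFR3B and BRD2 JQ1 stands alone.

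The promoters of 4 of these genes are shown as examples of genes far above JQ1 (CCDC110 and EFNA3) and of 7SK genes far below it (MEPCE and HEXIM1), chosen after their values were seen. They are RefSeq sequences of build GRCh38.p14, from 250 bases before to 50 bases after the annotated start, 5′ to 3′ on the gene's strand. CCDC110 lies at chr4:185471684-185471983 on the minus strand, EFNA3 at chr1:155078587-155078886, MEPCE at chr7:100428540-100428839 and HEXIM1 at chr17:45148225-45148524, these 3 on the plus strand. Capitals mark matches on either strand to the GC box GGGCGG, the CCAAT box CCAAT and the TATA box TATAAA.
CCDC110: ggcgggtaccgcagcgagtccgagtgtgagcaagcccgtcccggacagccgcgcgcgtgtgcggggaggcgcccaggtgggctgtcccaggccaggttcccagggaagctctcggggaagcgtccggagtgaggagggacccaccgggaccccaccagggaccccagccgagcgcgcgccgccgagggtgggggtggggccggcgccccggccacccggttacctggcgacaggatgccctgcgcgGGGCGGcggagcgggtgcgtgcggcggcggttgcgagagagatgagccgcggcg
EFNA3: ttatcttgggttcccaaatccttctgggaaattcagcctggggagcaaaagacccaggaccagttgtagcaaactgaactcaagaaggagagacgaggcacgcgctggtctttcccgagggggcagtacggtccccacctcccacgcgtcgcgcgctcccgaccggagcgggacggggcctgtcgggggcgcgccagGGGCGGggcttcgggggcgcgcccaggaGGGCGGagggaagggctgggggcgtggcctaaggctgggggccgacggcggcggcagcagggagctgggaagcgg
MEPCE: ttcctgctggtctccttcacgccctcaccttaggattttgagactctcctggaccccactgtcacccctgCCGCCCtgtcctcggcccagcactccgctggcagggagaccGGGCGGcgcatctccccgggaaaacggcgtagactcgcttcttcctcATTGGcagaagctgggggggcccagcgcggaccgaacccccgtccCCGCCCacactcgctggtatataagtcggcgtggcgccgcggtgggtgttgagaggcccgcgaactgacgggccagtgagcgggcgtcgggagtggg
HEXIM1: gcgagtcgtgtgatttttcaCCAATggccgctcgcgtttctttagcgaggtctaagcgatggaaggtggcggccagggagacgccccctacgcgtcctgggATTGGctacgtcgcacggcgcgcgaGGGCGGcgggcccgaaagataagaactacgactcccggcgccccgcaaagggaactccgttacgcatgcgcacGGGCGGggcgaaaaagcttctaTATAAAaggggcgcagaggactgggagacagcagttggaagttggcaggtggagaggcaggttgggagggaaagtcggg
The promoters of CCDC110 and EFNA3, both higher with panobinostat, hold 1 and 2 GC boxes and no other motif searched. That of MEPCE holds 3 GC boxes and 1 CCAAT box, and that of HEXIM1 holds 2 GC boxes, 2 CCAAT boxes and 1 TATA box. None of the 4 holds the E-box CACGTG, the cyclic AMP element TGACGTCA or the AP-1 site TGANTCA.

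Motif shares were counted over the 9707 genes with a promoter in the RefSeq table, 1275 of them called higher and 1358 called lower with panobinostat. The E-box, the site of MYC family proteins, occurred in 8.63% of promoters of genes that were higher, 11% of those lower and 9.1% of all. The GC box occurred in 70.3%, 74.2% and 62.9% in the same order, and the CCAAT box in 41.8%, 39.5% and 36.2%. The TATA box stood at 5.65%, 5.89% and 8.19%. The cyclic AMP element was found in 4.0%, 2.5% and 2.72%, and the AP-1 site in 4.0%, 3.61% and 5.48%. Both strands were searched, no motif searched lies within another, and no test was made, so these shares are a description.

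The 3461 called genes were placed by their calls against vehicle. A compound without a call may still have moved a gene, as JQ1 may have for EPC2 (-0.26, limma adjusted p = 0.0527). Panobinostat alone was called for about the same number of genes in each direction, 873 of the 1732 that were higher (50.4%) and 825 of the 1729 that were lower (47.7%). JQ1 alone was called for 300 of the genes that were higher with panobinostat (17.3%), which JQ1 had lowered, and for 284 of those that were lower (16.4%), which JQ1 had raised. Both compounds were called in the same direction for 192 higher and 236 lower genes, and in opposite directions for 55 and 73. The remaining 312 and 311 genes were called with neither compound, although the compounds differed from each other. Over all genes, 4363 were called between panobinostat and vehicle (29.3%), 2161 higher (14.5%) and 2202 lower (14.8%), and 2627 between JQ1 and vehicle (17.6%), 1218 higher (8.18%) and 1409 lower (9.47%). These comparisons share the vehicle arrays, so the placement is a count and was not tested. The same-direction count of 428 called genes went to 250, 265 and 276 without JQ1 replicates 1, 2 and 3, and the opposite-direction count of 128 to 74, 73 and 79 without these arrays and to 68 and 63 without vehicle replicates 2 and 3.

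**Figure D3:**
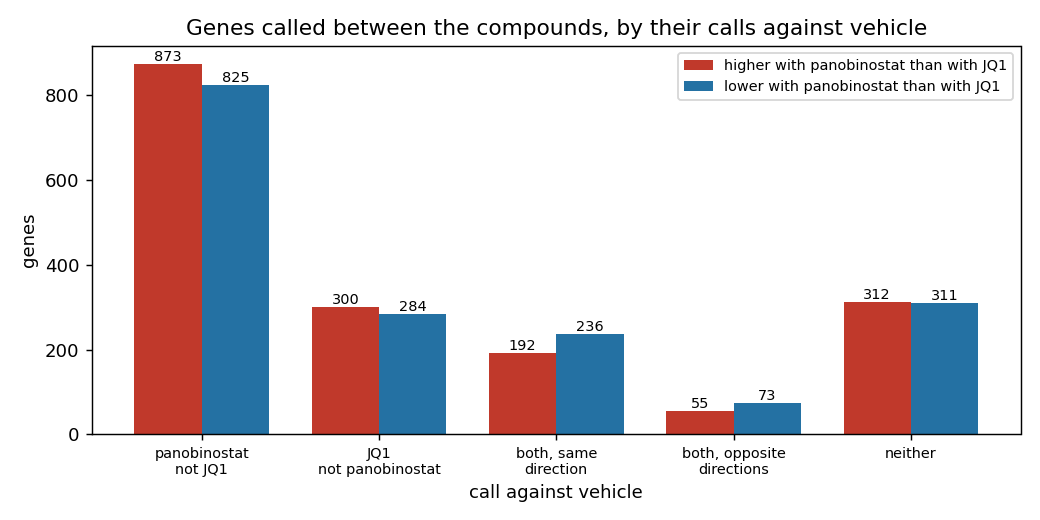
Number of genes (y) called higher (red) or lower (blue) with panobinostat than with JQ1, by whether panobinostat, JQ1, both or neither was called against vehicle (x). Panobinostat without JQ1 is the tallest pair at 873 and 825 genes, and genes moved in opposite directions are the shortest at 55 and 73.

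Opposite movements were led by PI15, DIXDC1 and HOOK1 on the side that panobinostat raised and JQ1 lowered, followed by TCTN2 (1.34 ± 0.09), TMEM67 (1.30 ± 0.15) and GALM (1.20 ± 0.11). TCTN2 and TMEM67 encode proteins of the transition zone at the base of the primary cilium, and GALM encodes galactose mutarotase. TCTN2 was at 9.87, 9.85 and 9.95 with panobinostat, 8.70, 8.38 and 8.58 with JQ1, and 9.35, 9.33 and 9.43 with vehicle, so no groups overlapped. On the side that panobinostat lowered and JQ1 raised stood MEPCE, SGF29, NPTXR and ELF1, followed by GATA3 (-1.32 ± 0.07) and LIPT2, a lipoyl transferase of mitochondria (-1.27 ± 0.08). ELF1 was at 8.64, 8.99 and 9.09 with panobinostat, 10.41, 10.24 and 10.34 with JQ1, and 9.48, 9.19 and 9.38 with vehicle. The JQ1 step of 0.98 made up more of that difference than the panobinostat step of -0.44. In NPTXR the steps were -0.43 with panobinostat and 1.10 with JQ1.

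A further 1102 genes were called against vehicle in the same direction with both compounds and were not called between them, 473 raised and 629 lowered. The 4 raised most by both were TESK2, which phosphorylates cofilin, SESN3, a stress-induced sestrin, SLIT2, a secreted axon guidance ligand, and TUFT1, the gene of tuftelin. SESN3 was at 10.34, 10.56 and 10.56 with panobinostat, 10.56, 10.62 and 10.55 with JQ1, and 9.21, 9.04 and 9.19 with vehicle, and its difference of -0.09 had a 95% interval from -0.26 to 0.08. SLIT2 differed by 0.18 (-0.06 to 0.41) and TUFT1 by -0.01 (-0.21 to 0.19). TESK2 did not pass the adjusted test either (0.36, interval 0.06 to 0.66, limma adjusted p = 0.0793), but its interval left out 0. The 4 lowered most by both were DKK1, a secreted WNT antagonist, the synaptic adhesion gene LRRTM1, NHSL2, and POPDC2, a membrane protein that binds cyclic AMP. DKK1 was at 10.05, 9.93 and 10.27 with panobinostat, 10.29, 9.89 and 10.08 with JQ1, and 11.94, 11.69 and 11.85 with vehicle. The panobinostat and JQ1 arrays of DKK1 overlapped and all were below vehicle, with a difference of -0.01 (interval -0.30 to 0.29). Intervals were -0.42 to 0.04 for LRRTM1, -0.10 to 0.28 for NHSL2 and 0.00 to 0.38 for POPDC2. These 8 intervals reach up to 0.66, in TESK2, and down to -0.42, in LRRTM1, so equal effects are not shown.

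Where both compounds moved a called gene the same way, panobinostat had usually moved it further. Of genes raised by both, 131 were higher with panobinostat than with JQ1 and 59 were lower, and of genes lowered by both, 177 were lower with panobinostat and 61 higher. REEP6, whose product shapes the endoplasmic reticulum, was at 9.57, 9.84 and 9.92 with panobinostat, 8.47, 8.12 and 8.46 with JQ1, and 7.43, 7.15 and 6.95 with vehicle. Its groups formed 3 separate steps, with panobinostat 2.68-fold above JQ1 (1.42 ± 0.15). In the other direction CD200, a surface glycoprotein that restrains myeloid cells, was at 7.78, 7.73 and 7.67 with panobinostat, 8.98, 9.13 and 9.12 with JQ1, and 9.59, 9.66 and 9.44 with vehicle (difference -1.35 ± 0.10). LMNB1, the gene of lamin B1 (-1.10 ± 0.09), the zinc finger gene ZBTB2 (-1.10 ± 0.11) and LANCL2 (-1.07 ± 0.07) likewise fell further with panobinostat.

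**Figure D4:**
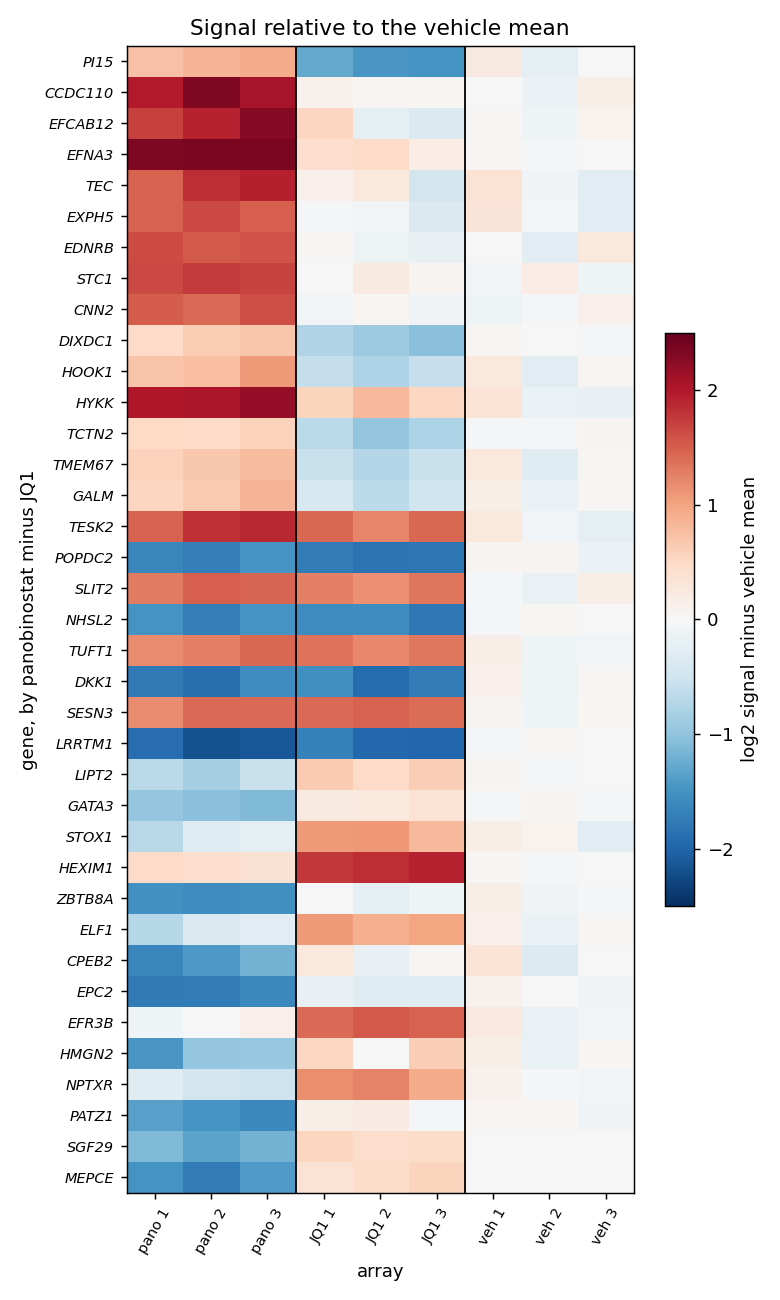
Log2 signal minus the vehicle mean (colour, red above and blue below) on each panobinostat, JQ1 and vehicle array (columns) for 37 genes (rows), ordered by panobinostat minus JQ1. From the top, genes that panobinostat raised alone or against JQ1 give way to genes moved alike by both, such as DKK1 and SESN3, and then to genes lower with panobinostat, ending at MEPCE.

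The control of P-TEFb was one of the most divided groups. Of 13 measured BET, P-TEFb and elongation genes, 6 were lower with panobinostat than with JQ1 and 1 was higher (median -0.12), against 11.6% of all genes in each direction and a median of 0.02 over all genes. For this and the later lists, 26.5% of protein-coding genes were called in either direction, more than the 23.3% of all genes. BRD2, a BET protein, was at 8.67, 8.71 and 8.73 with panobinostat, 9.62, 9.46 and 9.54 with JQ1, and 8.77, 8.61 and 8.61 with vehicle (-0.84 ± 0.10, limma adjusted p = 0.000111). Its panobinostat arrays were among those of vehicle and the JQ1 arrays were above. BRD3 was at 8.58, 8.61 and 8.59 with panobinostat and 9.18, 9.24 and 9.23 with JQ1 (-0.63 ± 0.06), and vehicle lay between them at 8.88 ± 0.07 (SD). Besides MEPCE and HEXIM1, the P-TEFb cyclins CCNT2 (-0.39 ± 0.10) and CCNT1 (-0.26 ± 0.07) were lower and the elongation factor ELL3 was higher (0.33 ± 0.09), a call lost without panobinostat replicate 3 or JQ1 replicates 1 or 3. CDK9, the kinase of P-TEFb, was at 0.34 with panobinostat and 0.36 with JQ1 against vehicle, and the difference of -0.01 ± 0.06 was not called.

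Among 17 deacetylases, 2 were lower with panobinostat and 1 was higher (median 0.05), no more than the 11.6% of all genes in each direction would give. SIRT1, an NAD-dependent deacetylase that panobinostat does not target, was at 9.74, 9.87 and 9.93 with panobinostat, 11.09, 11.08 and 11.09 with JQ1, and averaged 10.14 ± 0.07 with vehicle (SD, n = 3). The groups did not overlap, and the difference was 2.36-fold (-1.24 ± 0.07, limma adjusted p = 1.4e-06). HDAC1 (0.13 ± 0.07, limma adjusted p = 0.193) and HDAC2 (0.05 ± 0.07, limma adjusted p = 0.656) were not called. HDAC3 was higher (0.40 ± 0.11), a call lost without panobinostat replicates 2 (0.368) or 3 (0.327) or JQ1 replicates 2 (0.375) or 3 (0.384). HDAC6 was lower (-0.36 ± 0.11), a call lost without any 1 of the 6 panobinostat and JQ1 arrays (-0.384 to -0.335). Of 24 acetyltransferase and corepressor genes 5 were higher and 6 lower (median -0.07). The acetyltransferase genes EP300 (-0.60 ± 0.07), CREBBP (-0.46 ± 0.07), KAT7 (-0.66 ± 0.09), KAT8 (-0.51 ± 0.07) and KAT2A (-0.34 ± 0.07) were among those lower, whereas the acetyltransferase HAT1 (0.30 ± 0.07) and the corepressor scaffold SIN3A (0.73 ± 0.08) were higher. Without panobinostat replicate 3 or JQ1 replicates 1 or 2, 3 genes of this list were higher.

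Adrenergic transcription factors, which maintain the sympathetic neuroblast state of these cells, were lower with panobinostat than with JQ1 in 11 of 23 cases and higher in 3 (median -0.23). Over all genes 11.6% were called in each direction (median 0.02), and the count of adrenergic factors higher was near that share. GATA3 was at 10.80, 10.71 and 10.65 with panobinostat, 11.99, 12.02 and 12.13 with JQ1, and 11.73, 11.82 and 11.74 with vehicle, a 2.5-fold difference with no overlap (-1.32 ± 0.07, limma adjusted p = 7.65e-07). HAND2 was at 10.67, 10.79 and 10.90 with panobinostat, 11.89, 11.74 and 11.79 with JQ1, and averaged 11.80 ± 0.06 with vehicle (SD, n = 3). For HAND2 the JQ1 and vehicle levels were alike and panobinostat was below both (-1.02 ± 0.07). TFAP2B fell with both compounds, to 8.77, 8.57 and 8.68 with panobinostat and 9.83, 9.60 and 9.63 with JQ1, against 11.02, 11.25 and 11.02 with vehicle, and differed by -1.01 ± 0.09. TBX3 (-1.18 ± 0.07), MEIS2 (-0.98 ± 0.06) and GATA2 (-0.83 ± 0.08) were lower too, and each was called with panobinostat and not with JQ1. SOX11 was lower (-0.52 ± 0.10) with JQ1 as the called compound, 0.63 above vehicle. The LIM-domain genes LMO1 (0.48 ± 0.13) and LMO3 (0.42 ± 0.11) were higher with panobinostat and JQ1 stood further below vehicle (-1.43 and -0.87) than panobinostat did (-0.94 and -0.46). The count of genes higher was 0 without panobinostat replicate 2 and 1 without JQ1 replicate 3. SOX4 did not differ beyond its error (0.01 ± 0.07). In these bulk samples, fewer cells of a kind and less RNA per cell cannot be told apart.

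Factors of the mesenchymal neuroblastoma state gave 4 higher and 3 lower genes of 22 (median 0.05), against 11.6% of all genes in each direction. SOX9, a neural crest factor, was at 9.29, 9.18 and 9.09 with panobinostat and 8.38, 8.60 and 8.60 with JQ1 (0.66 ± 0.10), and TWIST1 was at -0.76 ± 0.16. The count of genes lower was 1 without panobinostat replicate 2, JQ1 replicates 1 or 3, or vehicle replicate 2. Among the noradrenergic markers, the 4 lower genes were GATA3, HAND2, ISL1 (-0.24 ± 0.06) and DBH, the enzyme that makes noradrenaline (-0.27 ± 0.07), whose call was lost without panobinostat replicate 2 (-0.213) or JQ1 replicate 1 (-0.230). Of 23 catecholamine and vesicle genes 3 were higher and 1 lower (median -0.04), led by MAOA, which degrades monoamines (0.79 ± 0.08). The 1 lower gene was DBH. With quantile normalization 6 were higher and 0 lower, and 6 were higher without dim genes and 5 with an intensity trend.

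Immediate early and AP-1 genes, the first to respond to growth signals, were lower with panobinostat in 9 of 22 cases and higher in 2 (median -0.16). The higher count was near the 11.6% of all genes called in each direction. JUND was at 9.65, 9.82 and 10.02 with panobinostat, 10.60, 10.62 and 10.63 with JQ1, and averaged 9.76 ± 0.14 with vehicle (SD, n = 3), a difference of -0.78 ± 0.10. SRF, the factor that drives many of these genes (-0.58 ± 0.08), ATF3 (-0.57 ± 0.12), KLF6 (-0.56 ± 0.08), the phosphatase gene DUSP1 (-0.49 ± 0.08), JUN (-0.46 ± 0.11) and ARC (-0.35 ± 0.10) were lower as well. Against vehicle each of these 7 genes was called higher with JQ1 and not called with panobinostat. EGR1 was raised by both, to 10.52, 10.50 and 10.48 with panobinostat and 10.64, 10.63 and 10.66 with JQ1, against 9.40 ± 0.20 with vehicle (SD, n = 3), and the compounds were not called apart (-0.14 ± 0.12, limma adjusted p = 0.448). Of 16 MAP kinase phosphatases and feedback inhibitors 6 were lower and 2 higher (median -0.13), the higher count again near the share of all genes. SPRY2, a feedback inhibitor of receptor kinases, was at 7.46, 7.53 and 7.49 with panobinostat and 8.36, 8.29 and 8.31 with JQ1 (-0.82 ± 0.07), DUSP14 was lower (-0.68 ± 0.09) and DUSP10 higher (0.81 ± 0.11). The count of genes higher was 1 without any 1 of the panobinostat arrays or JQ1 replicates 1 or 2.

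Cell cycle genes were lower with panobinostat than with JQ1 more often than they were higher. Mitotic genes were lower in 10 of 26 cases and higher in 1 (median -0.13), G1 to S genes lower in 7 of 18 and higher in 3 (median -0.06), and replication genes lower in 7 of 18 and higher in 2 (median -0.06). Beside them, 11.6% of all genes were called in each direction, with a median of 0.02, and 26.5% of protein-coding genes were called in either direction. SERTAD1, a regulator of E2F activity, was at 7.32, 7.0 and 7.35 with panobinostat, 8.70, 8.55 and 8.40 with JQ1, and averaged 7.27 ± 0.16 with vehicle (SD, n = 3), a 2.51-fold difference (-1.33 ± 0.15). Here panobinostat and vehicle were alike and JQ1 was high. E2F7, a repressor of the E2F family, was below vehicle with panobinostat (-0.69) and above it with JQ1 (0.36), and differed by -1.05 ± 0.07. CCND1, the gene of cyclin D1, averaged 10.86 ± 0.13 with panobinostat, 11.44 ± 0.0 with JQ1 and 11.65 ± 0.05 with vehicle (SD, n = 3 each) and differed by -0.59 ± 0.08. TYMS, the thymidylate synthase, was at 9.68, 9.62 and 9.62 with panobinostat and 10.61, 10.56 and 10.53 with JQ1, which lay at the vehicle level of 10.55 ± 0.02 (SD, n = 3), and differed by -0.92 ± 0.06. The mitotic kinase PLK1 (-0.50 ± 0.10) and the cyclins CCNA2 (-0.48 ± 0.07) and CCNB1 (-0.39 ± 0.07) were lower, whereas TOP2A, a topoisomerase, was not called (0.07 ± 0.06). Cyclin E1, CCNE1 (0.54 ± 0.10), the retinoblastoma gene RB1 (0.28 ± 0.06), GINS4, part of the replicative helicase (0.60 ± 0.11), and the helicase loader CDC6 (0.39 ± 0.08) were higher.

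In the MYC and growth list 2 of 24 genes were higher and 4 lower (median -0.07), against 11.6% of all genes in each direction. Without dim genes 7 were lower, and without replicate 1 of panobinostat or of JQ1 2 were lower. MYC itself was at 6.52, 6.07 and 6.52 with panobinostat, 6.49, 6.44 and 6.44 with JQ1, and 6.03, 6.32 and 6.17 with vehicle, and the overlapping arrays gave no call (-0.08 ± 0.13, limma adjusted p = 0.69). The mean MYC signal over the 12 arrays, 6.38, lay below the median gene of 7.24. MYCN, which is amplified in this line, has no named cluster and was not analysed. The MYC partner MAX was higher with panobinostat (0.44 ± 0.10) and ODC1, the ornithine decarboxylase, lower (-0.28 ± 0.06). Of 9 genes of the LIN28 to let-7 axis 4 were lower and 0 higher (median -0.06). LIN28B, which blocks the maturation of let-7, fell to 7.38, 7.56 and 7.60 with panobinostat and 8.17, 8.10 and 8.15 with JQ1, against 9.09, 8.93 and 9.12 with vehicle, and the compounds differed by -0.63 ± 0.10. IGF2BP3, an oncofetal RNA-binding protein, was lower (-0.92 ± 0.10), as was DGCR8, which recognises miRNA precursors (-0.86 ± 0.11). HMGA1 was the fourth (-0.26 ± 0.07), and its call was lost without panobinostat replicates 1 (-0.217) or 2 (-0.232) or JQ1 replicates 1 (-0.253) or 2 (-0.233). A second HMGA1 cluster, with a mean signal of 10.38 against 10.89, was not called in limma (-0.16, adjusted p = 0.171 over all clusters).

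Of 9 anti-apoptotic genes 3 were lower with panobinostat and 0 higher (median -0.17), against 11.6% of all genes in each direction. BCL2 fell to 9.0, 8.93 and 8.97 with panobinostat and 9.53, 9.45 and 9.45 with JQ1, against 10.25, 10.09 and 10.13 with vehicle, so the compounds were apart by -0.51 ± 0.09 (limma adjusted p = 0.00198). MCL1 was at 10.04, 10.17 and 10.16 with panobinostat and 10.68, 10.63 and 10.61 with JQ1, on either side of the vehicle level of 10.34 ± 0.06 (SD, n = 3), a difference of -0.52 ± 0.07. XIAP was the third (-0.50 ± 0.12), and its call was lost without all replicate 1 arrays (-0.566). Of 12 pro-apoptotic genes 2 were higher and 2 lower (median -0.01), near the 11.6% of all genes in each direction. BMF, a BH3-only protein, was at 8.5, 8.44 and 8.48 with panobinostat and 7.60, 7.27 and 7.48 with JQ1 (1.02 ± 0.10), and a dimmer BMF cluster was not called (0.15, adjusted p = 0.624 over all clusters). APAF1, the scaffold of the apoptosome, was higher (0.74 ± 0.11), and PMAIP1, which encodes NOXA (-0.50 ± 0.09), and BID (-0.34 ± 0.07) were lower. BCL2L11, the gene of BIM, overlapped between the compounds (-0.14 ± 0.13, limma adjusted p = 0.487). Of 10 p53 target genes 3 were lower and 0 higher (median -0.06), namely TP53I3 (-0.78 ± 0.07), PMAIP1 and SESN2 (-0.36 ± 0.11). The SESN2 call was lost without panobinostat replicates 1 (-0.262) or 2 (-0.359) or JQ1 replicates 1 (-0.313) or 2 (-0.375).

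Of 11 heat shock genes 4 were higher and 0 lower (median 0.08). For each list of this paragraph, the share of all genes called was 11.6% in each direction. HSPA2, an HSP70 family chaperone, was at 10.21, 10.06 and 10.36 with panobinostat, 9.23, 9.23 and 9.25 with JQ1, and averaged 8.12 ± 0.23 with vehicle (SD, n = 3), a difference of 0.97 ± 0.13. BAG3, a co-chaperone (0.44 ± 0.10), and the near-identical HSPA1A (0.46 ± 0.07) and HSPA1B (0.44 ± 0.07), which probes may not tell apart, were the others. Genes reported to respond to HDAC inhibitors gave 4 higher and 3 lower of 20 (median 0.12). In the unfolded protein response 5 of 13 genes were higher and 5 lower (median 0.12), with DDIT4 at 0.53 ± 0.06 and SEL1L at 0.40 ± 0.07 on one side and ATF5 at -0.83 ± 0.13 and ERN1, the sensor IRE1, at -0.49 ± 0.11 on the other. The ERN1 call was lost without all replicate 1 arrays. The count of genes higher was 3 without panobinostat replicates 2 or 3 or JQ1 replicate 3 and 2 without JQ1 replicate 2, and that of genes lower was 3 without panobinostat replicates 1 or 2 or JQ1 replicates 1 or 2. In the antioxidant and aryl hydrocarbon receptor list 2 of 13 genes were higher and 1 lower (median 0.05). KEAP1, which restrains NRF2, was at 8.65, 8.36 and 8.67 with panobinostat, 9.65, 9.55 and 9.57 with JQ1, and averaged 10.35 ± 0.16 with vehicle (SD, n = 3), a difference of -1.03 ± 0.13. AHR, a receptor of aromatic compounds, rose with both and more with panobinostat (0.57 ± 0.09). The count of genes higher was 1 without panobinostat replicates 1 or 3 or JQ1 replicates 2 or 3. Sterol genes split evenly, 4 of 18 in each direction (median -0.06). STARD4, a sterol carrier (1.01 ± 0.09), and MVK, the mevalonate kinase (0.86 ± 0.06), were higher. FASN, the fatty acid synthase (-0.63 ± 0.07), and MVD, the decarboxylase of the mevalonate route (-0.46 ± 0.08), were lower.

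Of 34 axon guidance genes 9 were higher with panobinostat and 4 lower (median 0.16), against 11.6% of all genes in each direction. EFNA4, the ephrin-A4 ligand, was at 8.76, 8.34 and 8.86 with panobinostat, 7.20, 7.11 and 7.46 with JQ1, and averaged 7.12 ± 0.26 with vehicle (SD, n = 3), a 2.64-fold difference (1.40 ± 0.17). Among the ephrins EFNA3, EFNA4, EFNA1 (0.58 ± 0.11) and EFNB3 (0.62 ± 0.09) were higher, whereas EFNB2 (-0.67 ± 0.13) and EFNB1 (-0.29 ± 0.09) were lower. The receptor EPHA2 was higher (0.69 ± 0.09) and the netrin receptor UNC5C lower, at 9.59, 9.58 and 9.53 with panobinostat and 10.61, 10.68 and 10.61 with JQ1 (-1.07 ± 0.07). SLIT3 was higher (0.61 ± 0.13), with JQ1 further below vehicle (-1.07) than panobinostat (-0.46). Of 26 neuronal adhesion genes 4 were higher and 1 lower (median 0.13), near the 11.6% of all genes called higher, with FLRT3 at 1.06 ± 0.14 and CD200 as the lower gene. The count of genes higher was 1 after centring of the arrays, and 2 without panobinostat replicate 2 or JQ1 replicate 3.

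Growth factor receptors and ligands gave 3 higher and 4 lower of 23 (median 0.02), near the 11.6% of all genes called in each direction. FGFR2 was at 0.47 ± 0.09, FGFR1 at -0.37 ± 0.07 and EGFR at -0.26 ± 0.09. With quantile normalization 5 genes of this list were higher and 2 lower. The lower count of the list was also 2 without panobinostat replicate 2, without JQ1 replicates 1, 2 or 3, or without vehicle replicate 3. WNT and NOTCH genes gave 5 higher and 4 lower of 30 (median 0.06), near these shares of all genes. LGR5, a receptor that strengthens WNT signals, was at 10.82, 10.85 and 10.82 with panobinostat and 10.27, 10.32 and 10.28 with JQ1 (0.54 ± 0.07), and the vehicle mean of 10.91 ± 0.07 (SD, n = 3) lay near panobinostat. HES6, a NOTCH pathway factor, was lower (-0.56 ± 0.09). Without panobinostat replicate 1, or after centring, 3 WNT and NOTCH genes were higher. Of 22 interferon, chemokine and antigen presentation genes 5 were higher and 1 lower (median 0.09), against the same 11.6% of all genes. The NKG2D ligand ULBP2 was at 8.09, 7.73 and 7.60 with panobinostat and 6.82, 6.95 and 6.83 with JQ1 (0.94 ± 0.12), the chemokine receptor CXCR4 was higher (0.84 ± 0.13), and IRF7, an interferon regulatory factor, was lower (-0.77 ± 0.09).

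**Figure D5:**
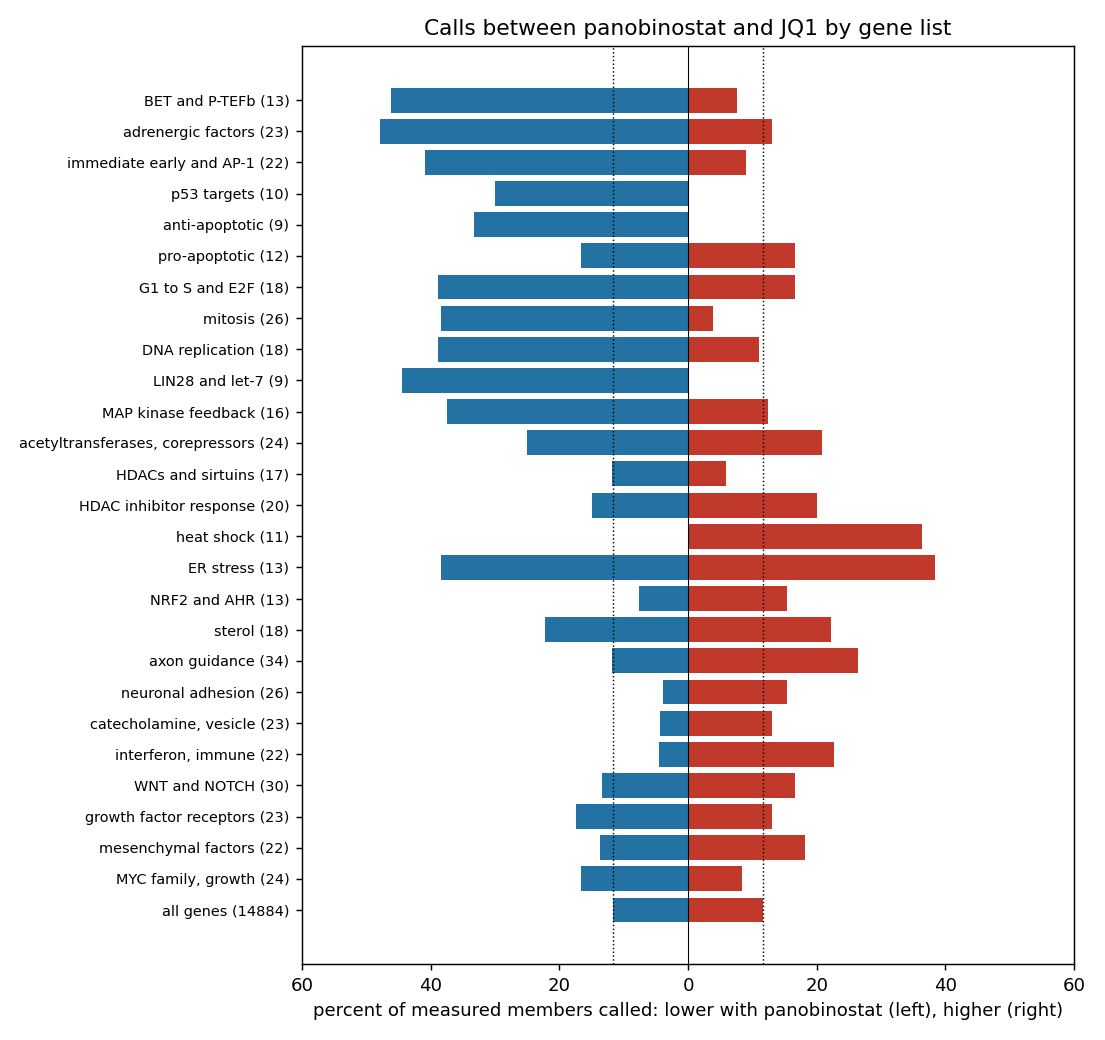
Percent of the measured members of each gene list called lower (blue, to the left) or higher (red, to the right) with panobinostat than with JQ1, with the number measured in brackets and dotted lines at the 11.6% of all genes called in each direction. The adrenergic and BET lists reach furthest to the left, with 11 of 23 and 6 of 13 genes, and the unfolded protein response and heat shock lists furthest to the right, with 5 of 13 and 4 of 11. The unfolded protein response list reaches equally far to the left, with 5 of 13, and the heat shock count includes the near-identical HSPA1A and HSPA1B.

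Gene classes differed in the share called, which was not tested. Protein-coding genes gave 1562 higher and 1595 lower of 11915 (26.5%), long noncoding RNA genes 99 and 74 of 1398 (12.4%), and miRNA genes 43 and 37 of 1072 (7.46%). Of 8 genes typed as small nuclear RNA 3 were higher and 0 lower (37.5%, median 0.34). The 8 small NF90-associated RNA genes given below have the same counts and median and may be the same genes. Those are near-identical copies, so this share may not stand for separate genes. The median gene of the first 3 classes had a mean signal of 7.65, 5.96 and 5.30 in that order. The mature miRNAs of 4 of the 6 named miRNA loci are shown, among them the locus furthest in each direction (MIR3144 and MIR301A), and capitals mark the seed, bases 2 to 8 from the 5′ end (RefSeq, build GRCh38.p14).
hsa-miR-3144-5p: aGGGGACCaaagagauauauag
hsa-miR-3144-3p: aUAUACCUguucggucucuuua
hsa-miR-568: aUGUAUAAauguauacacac
hsa-miR-301a-3p: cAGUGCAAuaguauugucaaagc
hsa-miR-301a-5p: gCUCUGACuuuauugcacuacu
hsa-miR-5047: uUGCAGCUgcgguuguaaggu
No seed is shared among these 6 mature sequences. MIR3144, on chromosome 6, was at 4.57, 5.27 and 4.98 with panobinostat, 3.65, 3.36 and 3.63 with JQ1, and averaged 3.37 ± 0.41 with vehicle (SD, n = 3), so it was higher by 1.39 ± 0.25. MIR568 (1.23 ± 0.28) and MIR1206 (1.36 ± 0.31) were higher too, the second with JQ1 below vehicle (-2.16). MIR301A, on chromosome 17, was at 3.71, 3.73 and 3.69 with panobinostat and 4.64, 4.99 and 4.93 with JQ1 (-1.15 ± 0.17). MIR5047 (-0.85 ± 0.15) and MIR3143 (-0.89 ± 0.14) were lower. Most of these signals lay below the median gene of 7.24, and the probes do not tell a precursor from its host transcript.

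Among long noncoding RNAs, MIR17HG, the host transcript of the miR-17 to miR-92 cluster, was at 5.49, 5.65 and 5.36 with panobinostat, 6.72, 6.94 and 6.51 with JQ1, and 6.83, 7.03 and 6.78 with vehicle. Panobinostat was below both other groups, which overlapped each other (-1.23 ± 0.12, limma adjusted p = 4.88e-05). RAB11B-AS1 (-1.55 ± 0.18) and CHASERR, which lies beside CHD2 and limits its expression (-0.85 ± 0.10), were lower as well. LINC00312 (1.26 ± 0.13), LOC730101 (1.20 ± 0.13) and SILC1 (1.11 ± 0.12) were higher with panobinostat. For SILC1 the called compound was JQ1, at -0.78 against vehicle, and for the other 2 it was panobinostat. A dimmer LINC00312 cluster showed no call in limma (-0.08, adjusted p = 0.905 over clusters).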

How the data were processed

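Total RNA of SK-N-BE(2) cells was hybridised as biotin-labelled cRNA to 12 arrays, per the labels' protocols. Each transcript cluster has 1 deposited value per array. These deposited values span about 1 to 14 and were taken as log2, although no source used here states the log base. MAS5 and affy appear by name alone in the submitters' processing notes, and how background was corrected, how arrays were normalized and which build was used is not given in the sources used here. In the deposited values the mean of the 4 replicate 1 arrays equals that of the 8 other arrays almost exactly over clusters (SD of the difference 0.027, against 0.131 and 0.133 for replicates 2 and 3), a pattern for which no step is stated. Array medians were 6.119 to 6.292. No detection call comes with the values, and precision is limited by how many arrays there are.

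A probe table gave 16098 clusters 1 symbol each (0 with several) and left 37519 unnamed. All 16098 were matched to RefSeq by Entrez identifier. MYCN and CDKN1A have no named cluster and were not analysed here. Group means were fitted by limma 3.58.1 under R 4.3.3 (functions lmFit and eBayes) to 12 arrays, leaving 8 residual degrees of freedom with a prior of 3.457. Tests were two-sided and adjusted by Benjamini-Hochberg over 14884 genes. No label says that replicates were separate cultures, so the p-values rest on a spread among arrays that may be technical. With 3 arrays on each side, exact permutation cannot reach below 0.1 and was not used. Comparisons with vehicle share the vehicle arrays and served only to place genes.

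The comparison, its genes and the 28 lists were chosen with earlier results of these data known. Named genes are the 12 protein-coding genes with the largest called difference per direction (arrays not overlapping, higher group mean at least 7.24, the median gene), 6 per opposite pattern, 4 per direction moved alike by both or moved the same way but differently, up to 4 called members per list, central genes of the compounds and the disease, and 3 miRNA and 3 long noncoding RNA genes per direction. Other list members named were chosen after their values were seen. The alternatives were quantile normalization, median centring, leaving out the dimmest 40% of genes, a replicate block, fewer groups in the fit, an intensity trend, the mean of a gene's clusters, a stricter threshold, and each array left out. A batch term for replicate 1 and a fit without any replicate 1 array were added after seeing the data.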

Additional observations from a re-analysis of the deposited data

How the results depend on the processing

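Of the 154 genes named by rule, 137 were called. In 19 other fits at the same threshold, 119 of these kept the call in every fit that gave a value and 18 lost it in at least 1. The stricter threshold is not among these 19. Of the called genes 0 changed direction. Between panobinostat and JQ1, 3461 genes were called (2061 at an adjusted p under 0.01), 2633 to 3579 when 1 array was left out and 2915 with a batch term for replicate 1. This term and the fit without all replicate 1 arrays were chosen after seeing the data. Genes higher with panobinostat numbered 1088 after centring and 1732 before, and genes at least 2-fold higher numbered 129 without all replicate 1 arrays, against 85. Called genes moved by both compounds in the same direction (428) numbered 265 after centring, 665 without dim genes and 249 without replicate 1, and 250 to 413 when 1 array was left out. Those moved in opposite directions (128) numbered 63, 206 and 63 in these settings, 199 with an intensity trend, 76 with the batch term and 63 to 111 when 1 array was left out. The cause was not tested. Nothing in the labels pairs the replicate numbers. Deviations of same-numbered arrays correlated at -0.479, -0.030 and 0.005 between panobinostat and JQ1, where different numbers reached up to 0.285. Between panobinostat and vehicle they correlated at -0.693, -0.108 and -0.158, and different numbers reached up to 0.486. Between JQ1 and vehicle they correlated at 0.201, 0.179 and 0.096, and different numbers reached at most 0.019. The equal replicate 1 means make the deviations of these arrays sum to about 0 over the groups, so the check does not settle the pairing. The replicate block called 2871 genes (1428 higher and 1443 lower), 74 of them in opposite directions, and 5 higher and 2 lower growth factor receptor genes. Only genes without a call changed sign. With quantile normalization CDK9 was at 0.047, DKK1 at 0.055 and TUFT1 at 0.042, and after centring HDAC2 was at -0.006 and SOX4 at -0.047. Without replicate 1, BCL2L11 was at 0.021, CDK9 at 0.019, DKK1 at 0.111, SOX4 at -0.034 and TUFT1 at 0.078. With 1 array left out, CDK9 ranged from -0.049 to 0.013, DKK1 from -0.106 to 0.095, MYC from -0.159 to 0.063, SOX4 from -0.024 to 0.038, TP53INP1 from -0.219 to 0.006 and TUFT1 from -0.076 to 0.046. Signal over background is unknown, which limits the dim genes.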

Other observations

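Families chosen after their values were seen are given here as values, with no test of the family. Genes of the primary cilium were often higher with panobinostat than with JQ1. Of 16 intraflagellar transport genes, which carry cargo along the cilium, 8 were called higher and 0 lower (median 0.48). Over all genes 11.6% were called in each direction, with a median of 0.02. Among the genes higher were IFT70A (1.12 ± 0.14), IFT80 (0.90 ± 0.13), IFT70B (0.86 ± 0.12), IFT57 (0.77 ± 0.10) and IFT81 (0.73 ± 0.11). The near-identical IFT70A and IFT70B may share probe signal. Against vehicle, 6 of the 16 rose and 0 fell with panobinostat, whereas 0 rose and 4 fell with JQ1, beside 14.5% and 14.8% of all genes with panobinostat and 8.18% and 9.47% with JQ1. Of 22 transition zone and BBSome genes, 12 were higher and 1, BBS2, lower (median 0.28), led by TCTN2, TMEM67, BBS12 (1.05 ± 0.11) and TMEM107 (0.90 ± 0.10). TCTN2 and TMEM67, already named above for their opposite movement, are counted in it. Against vehicle, 8 of the 22 rose and 1 fell with panobinostat, and 2 rose and 5 fell with JQ1.

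Of 16 NuA4 acetyltransferase subunits, 6 were called lower with panobinostat than with JQ1 and 0 higher (median -0.18), against 11.6% of all genes in each direction, with EPC2 and EPC1 (-1.18 ± 0.11) furthest. Of 15 SAGA and ATAC subunits 6 were lower and 0 higher (median -0.14), among them SGF29, TADA2A (-0.77 ± 0.09) and the deubiquitinase USP22 (-0.54 ± 0.07). The share over all genes includes dim and noncoding ones. Of protein-coding genes 26.5% were called in either direction, so 11.6% is a low yardstick for these families.

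Of 8 small NF90-associated RNA genes 3 were higher and 0 lower (median 0.34), but these are near-identical copies and the values of single members are uncertain. The counts and median equal those of the 8 genes typed as small nuclear RNA above, so the family may not be a separate set. Among 37519 clusters without a gene name, 895 were higher and 819 lower with panobinostat (4.57%). Cluster 16998551 had the largest rise, with means of 10.16 with panobinostat and 6.36 with JQ1 (3.80 ± 0.16, limma adjusted p = 2.49e-06), which exceeds that of any named gene. Over transcript clusters, the mean of the replicate 1 arrays lay close to that of the other arrays (median absolute difference 0.013), nearer than for replicate 2 (0.0678) or replicate 3 (0.0689). No source used here states a step for this, and its part in the results was not tested beyond the fits with a batch term and without these arrays.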
